A study of Homo sapiens with 24 samples.

Results

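The genes described here are 54 that act in mitosis or in the G2 phase before it, out of 23595 genes in the deposited tables. They were chosen by symbol, from a list of known mitotic genes, and all 54 were found and passed the filter on low values in every comparison. By role they are 7 genes of the cyclin-CDK engine, 9 for Aurora, Polo and NEK kinases or their partners, and 5 of the spindle checkpoint. Then come 4 of the anaphase-promoting complex (APC/C) and sister chromatid separation, and 7 of the centromere and kinetochore. The last are 14 kinesins and spindle proteins, 4 genes of cytokinesis and 4 of chromosome structure.

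As background, a cell enters mitosis when the kinase CDK1, bound to cyclin B, becomes active. Aurora and Polo kinases then help to build the spindle, kinetochores tie chromosomes to its microtubules, and the spindle checkpoint holds back the APC/C until all are attached. Most of these genes are transcribed in G2 and M and kept low in the rest of the cycle, through promoter elements read by the DREAM complex, by MYBL2 and by FOXM1.

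The libraries come from IMS-M2 and U937, established human cell lines of the myeloid lineage. Medium either held folic acid (+FA) or lacked it (-FA), and in each medium either line received OTX or the solvent DMSO, so there are 8 groups with 3 libraries apiece. OTX most likely stands for birabresib (a BET bromodomain inhibitor), an identity that rests on knowledge of the study. The labels give the abbreviation without a dose or a duration, and they do not say whether the 3 libraries of a group are separate cultures, so the p-values measure only the spread between these libraries. The comparisons ask how the genes respond to OTX in each line and folic acid condition, and whether that response differs without folic acid or between the lines.

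Levels of polyadenylated RNA are in FPKM, a fragment count scaled to transcript length and library size, and the sequencing depth is unknown. FPKM summed to between 522659 and 644841 per library, and libraries of a group correlated across genes at r of 0.9749 to 0.9943. Of 6 myeloid and leukocyte markers, 5 or 6 reached a mean of 1 FPKM in each group. Their summed level ranged over 248 to 262 FPKM under DMSO and 120 to 135 under OTX in IMS-M2 +FA, and over 256 to 270 and 131 to 144 in IMS-M2 -FA. In U937 it ranged over 871 to 1048 and 631 to 654 with folic acid, and over 1788 to 2176 and 855 to 920 without. The number that reached that mean under DMSO and OTX was 6 and 5 in IMS-M2 +FA, 5 and 5 in IMS-M2 -FA, and 5 and 6 in each U937 condition. A sum does not show how single markers moved. The part of the summed level in the results below was not tested. Of 10 epithelial, stromal, endothelial, erythroid and T cell markers, 1 to 4 reached that mean, and EPCAM was listed at 0 in all libraries. Libraries of 1 group differed along a leading axis, computed from 12143 genes that are not among the 54, which held 27.7% of the variance within groups. The libraries farthest out on it were U937 -FA DMSO columns 2 (score 2.42) and 1 (score -1.82), IMS-M2 +FA DMSO replicates 1 (score -1.76) and 3 (score 1.46), and U937 +FA DMSO replicate 1 and OTX replicates 1 and 3 (scores 1.47, -1.36 and 1.45), where 1 is the SD over the 24 libraries. These scores are deviations within groups. Where the library axis is a covariate below, the axis was recomputed in that fit and each library's full score was used. That score also holds differences between groups. The columns of the U937 -FA table carry numbers that do not match the labels, so those libraries are named by column.

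RefSeq promoter sequences (build GRCh38.p14, 250 bases before to 50 bases after each start) were found for 47 of the 54 genes. They are shown because many mitotic promoters carry 2 known elements, the cell cycle homology region, searched as TTTGAA and as TTCGAA, and the CCAAT box, each on both strands. TTTGAA was present in 33 of the 47 (70.2%), against 18.2% of the 27305 genes in the table. CCAAT was present in 38 (80.9%), against 39.7%, and TTCGAA in 4 (8.51%), against 1.82%. A gene was counted where any of its listed promoters held the element, among the members and among all genes alike. Both TTTGAA and CCAAT occurred in 27 genes and neither in 3. The 8 sequences below are the 120 bases that end just before the start, with TTTGAA in capitals, as is its reverse complement TTCAAA, and the CCAAT box likewise, as is its reverse complement ATTGG. Where several promoters were listed for a gene, the one with the most matches in these bases was printed. The sequences shown were therefore selected for carrying the elements. A match is a description of the letters only. ANLN (chr7:36389742-36389861 on the plus strand), KIF11 (chr10:92593010-92593129 on the plus strand) and MKI67 (chr10:128126424-128126543 on the minus strand) were chosen because they rose under OTX in all 4 conditions, as given further on. CDK1 (chr10:60778358-60778477 on the plus strand), CCNB1 (chr5:69167030-69167149 on the plus strand) and CDC20 (chr1:43358861-43358980 on the plus strand) rose in some conditions and not in others. PLK1 (chr16:23678769-23678888 on the plus strand) and SPC24 (chr19:11155783-11155902 on the minus strand) fell in 3 of the 4.
ANLN: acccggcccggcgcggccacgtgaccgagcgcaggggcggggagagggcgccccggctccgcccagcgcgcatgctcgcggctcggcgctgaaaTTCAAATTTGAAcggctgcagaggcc
KIF11: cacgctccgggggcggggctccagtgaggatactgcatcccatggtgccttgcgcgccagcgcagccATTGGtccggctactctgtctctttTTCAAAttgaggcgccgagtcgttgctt
MKI67: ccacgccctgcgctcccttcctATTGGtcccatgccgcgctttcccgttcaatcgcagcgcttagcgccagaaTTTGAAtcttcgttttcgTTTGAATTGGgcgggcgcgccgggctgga
CDK1: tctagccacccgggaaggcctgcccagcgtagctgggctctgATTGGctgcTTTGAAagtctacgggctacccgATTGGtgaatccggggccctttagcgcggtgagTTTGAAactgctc
CCNB1: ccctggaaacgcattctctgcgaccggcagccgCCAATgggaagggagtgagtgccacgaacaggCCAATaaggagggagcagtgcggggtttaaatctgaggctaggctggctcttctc
CDC20: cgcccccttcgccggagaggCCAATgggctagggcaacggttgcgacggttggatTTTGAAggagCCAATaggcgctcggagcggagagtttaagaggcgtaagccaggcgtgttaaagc
PLK1: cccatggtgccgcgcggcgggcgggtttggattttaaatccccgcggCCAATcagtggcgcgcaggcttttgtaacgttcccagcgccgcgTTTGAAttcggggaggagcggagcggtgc
SPC24: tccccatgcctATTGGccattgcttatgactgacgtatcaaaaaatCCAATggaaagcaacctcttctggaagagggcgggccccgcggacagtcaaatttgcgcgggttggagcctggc
In ANLN the TTTGAA and its reverse complement lie end to end. CCNB1 and SPC24 have CCAAT boxes and no TTTGAA in the bases shown, while PLK1 has both elements, as CDK1 and KIF11 do. In MKI67 a TTTGAA overlaps a reverse CCAAT box.

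Under OTX, most of the mitosis genes whose level changed went up, and a small group led by PLK1, SPC24, BUB3 and UBE2C went down. In IMS-M2 +FA, 32 of the 54 rose, where 29.8% of all 11223 genes tested rose, and 5 fell, where 33.4% of all genes fell. Their median log2 change was 0.33, against -0.03 over all genes tested. In IMS-M2 -FA, 13 rose (27.5% of all genes) and 5 fell (30.0% of all genes), with a median of 0.07 against -0.01. That share of risen genes is near the background. In U937 +FA, 31 rose (29.1% of all 11194 genes tested) and none fell (27.0%), with 1 of the 54 below the unadjusted threshold of 0.05 in that direction in limma, and the median was 0.34 against 0.02. In U937 -FA, 29 rose (28.0%) and 3 fell (31.7%), with a median of 0.35 against -0.02. The 5 that fell in IMS-M2 +FA became 10 without DMSO replicate 1 and 3 without DMSO replicate 3 or OTX replicate 1, and in U937 +FA 1 gene fell without DMSO replicate 1. A gene is said to rise or fall where limma gave a Benjamini-Hochberg adjusted p below 0.05 over all genes tested, on log2(FPKM + 1). In RNA from whole cultures, a larger share of cells in G2 or M and more RNA of these genes per cell cannot be told apart.

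In all 4 conditions 11 of the 54 rose, where 11.4% of the 10220 genes tested in both lines did so. They were ANLN, ASPM, CENPE, ECT2, KIF11, KIF20B, KIF4A, MKI67, NCAPG, NCAPH and NUSAP1, genes of the spindle, of cytokinesis and of mitotic chromosome structure, with CENPE the 1 kinetochore motor among them. Another 6 rose in exactly 3 conditions, 14 in exactly 2, 15 in 1 and 8 in none. PLK1 and SPC24 fell in 3 conditions, BUB3 and UBE2C in 2, and CCNB1, BUB1B and KIF22 in 1. No member fell in all 4, and 2 fell in at least 3, where 19.7% of all genes did so. CCNA2, the cyclin A that works in S and G2 phase, and INCENP, the scaffold of the chromosomal passenger complex, were called in no condition.

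**Figure D1:**
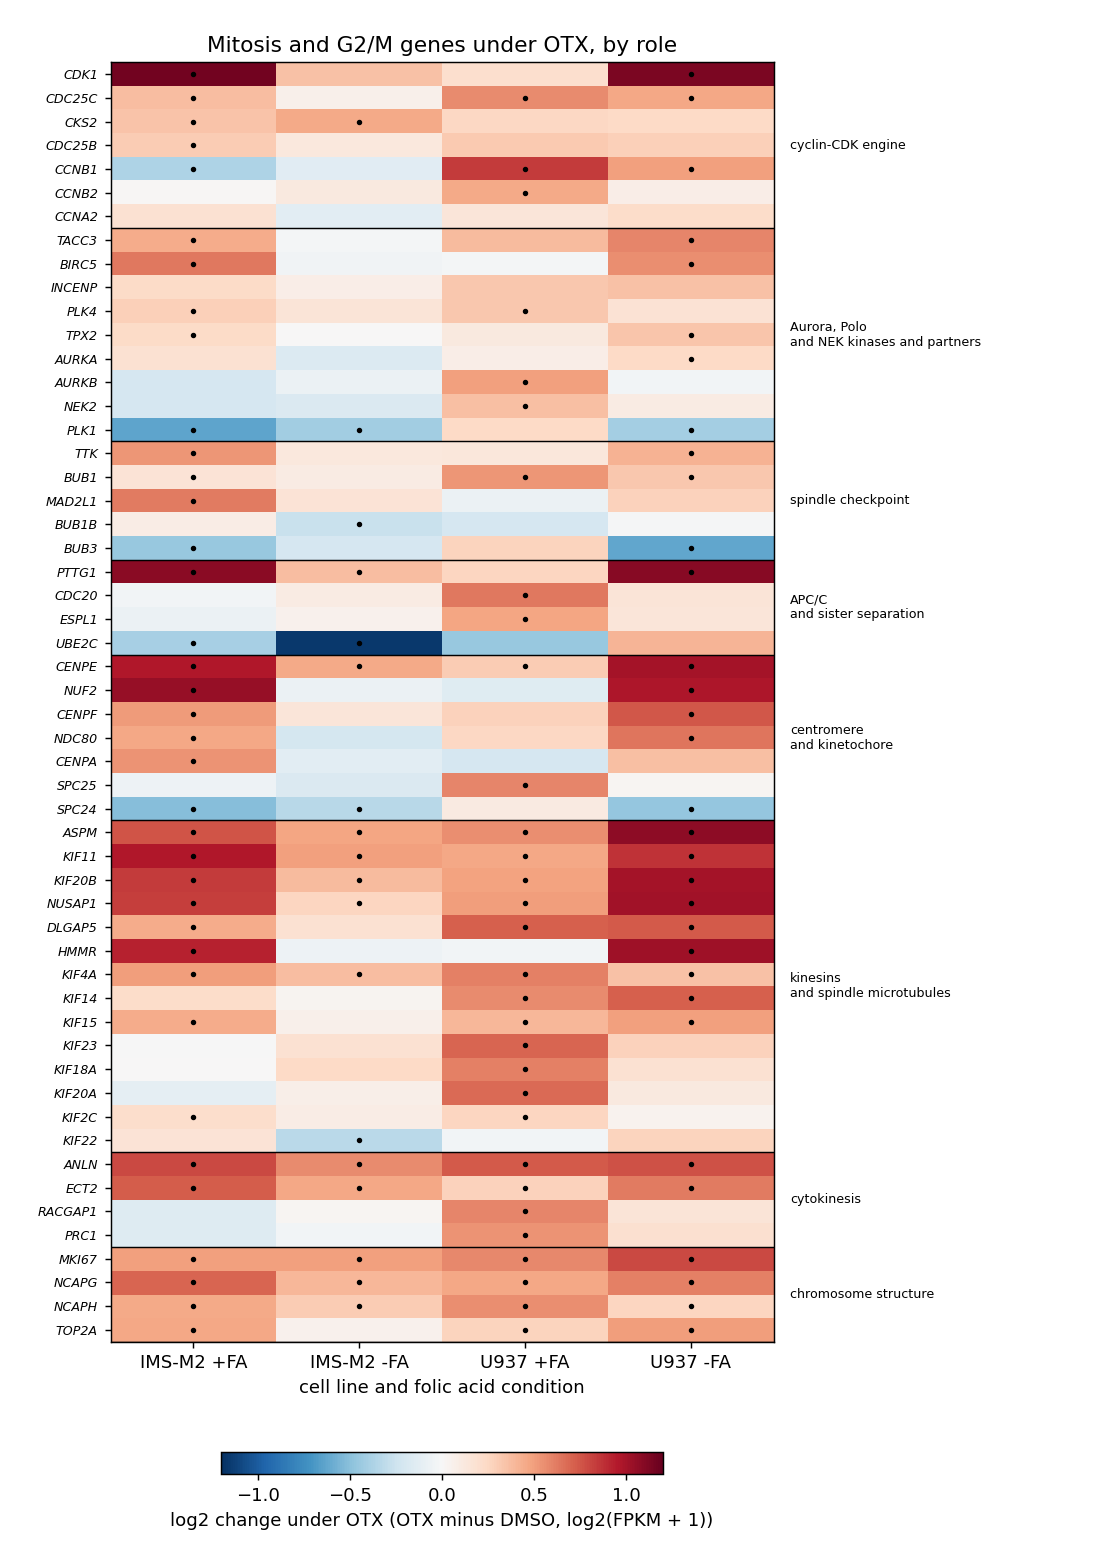
Heat map of the log2 change under OTX (OTX minus DMSO on log2(FPKM + 1)) of the 54 genes, in rows grouped by role, in the 4 line and folic acid conditions, with a black dot where the change was called. The kinesin and spindle block is red in most cells, with 9, 5, 12 and 9 of its 14 genes risen from left to right, and PLK1, SPC24, BUB3 and UBE2C hold the darkest blue cells. Over all genes 29.8%, 27.5%, 29.1% and 28.0% rose.

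Of the 14 kinesins and spindle proteins, 9 rose in IMS-M2 +FA (median log2 change 0.45), 5 rose and 1 fell in IMS-M2 -FA (0.19), 12 rose in U937 +FA (0.53) and 9 rose in U937 -FA (0.60). Over all genes, in the same order, 29.8%, 27.5%, 29.1% and 28.0% rose and 33.4%, 30.0%, 27.0% and 31.7% fell. KIF11, the motor that pushes spindle poles apart (chr10:94352824-94415152 in hg19), read 21.1, 21.2 and 17.5 FPKM under DMSO and 36, 43.4 and 40.2 FPKM under OTX in IMS-M2 +FA. Without folic acid it read 22.2, 25 and 24.5 FPKM under DMSO and 31.1, 38.7 and 32.4 FPKM under OTX. The OTX libraries lay above the DMSO libraries in both conditions (log2 change 0.96, SE 0.11, adjusted p = 5.74e-06 and log2 change 0.49, SE 0.11, adjusted p = 0.00161). In U937 +FA the values were 21, 25.1 and 22.7 FPKM under DMSO and 32.5, 32.9 and 30.6 FPKM under OTX, and in U937 -FA they were 16.2, 18.7 and 12.7 FPKM under DMSO and 26.3, 30.9 and 31.3 FPKM under OTX. KIF11 again had no overlap in either condition (log2 change 0.47, SE 0.12, adjusted p = 0.00747 and log2 change 0.87, SE 0.12, adjusted p = 0.000109).

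ASPM, a protein of the spindle poles, was among the 4 highest changes in both conditions without folic acid. It read 7.12, 9.21 and 7.99 FPKM under DMSO and 10.8, 13.9 and 10.3 FPKM under OTX in IMS-M2 -FA, and 3.43, 4.19 and 2.66 FPKM under DMSO and 7.21, 8.68 and 8.94 FPKM under OTX in U937 -FA. Each OTX library was above each DMSO library (log2 change 0.47, SE 0.13, adjusted p = 0.00744 and log2 change 1.08, SE 0.14, adjusted p = 4.97e-05). HMMR, a microtubule-binding protein of the spindle, behaved otherwise. In U937 -FA it read 11.7, 14.6 and 8.30 FPKM under DMSO and 21.8, 25.3 and 24.2 FPKM under OTX, a rise without overlap (log2 change 1.01, SE 0.21, adjusted p = 0.00134). With folic acid the same line read 17, 27.9 and 22.5 FPKM under DMSO and 24.1, 23.7 and 17.2 FPKM under OTX, and the libraries of both groups were mixed (log2 change -0.04, SE 0.21, adjusted p = 0.889). In IMS-M2 the pattern over folic acid was the opposite: 12.5 ± 2.93 to 24.5 ± 3.51 FPKM with it (log2 change 0.93, SE 0.16, adjusted p = 0.000262) and 17.4 ± 0.868 to 16.9 ± 3.39 FPKM without it (log2 change -0.06, SE 0.16, adjusted p = 0.777; mean ± SD, n = 3).

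KIF20A, a kinesin of the central spindle needed for cytokinesis, rose in U937 +FA alone among the 4 conditions, where it read 36.9, 29.5 and 31.8 FPKM under DMSO and 50.3, 51.5 and 57.2 FPKM under OTX (log2 change 0.68, SE 0.11, adjusted p = 0.000232). In U937 -FA it read 28.8, 25.6 and 32.2 FPKM under DMSO and 29.8, 30.3 and 33.9 FPKM under OTX, with overlap (log2 change 0.12, SE 0.11, adjusted p = 0.363), and the call there is gained when the library axis is a covariate (adjusted p = 0.00333). IMS-M2 gave 38.4, 46.1 and 52.3 FPKM under DMSO and 41.4, 38.5 and 45.7 FPKM under OTX with folic acid and 31.1, 33.6 and 36.5 FPKM under DMSO and 34.5, 34.5 and 37 FPKM under OTX without it. Neither was called (log2 change -0.11, SE 0.11, adjusted p = 0.380 and log2 change 0.07, SE 0.11, adjusted p = 0.622), although without IMS-M2 +FA DMSO replicate 1 that with folic acid was a call of a fall (adjusted p = 0.0472). Its locus is shared with CDC23 in the tables. KIF23, its neighbour at the central spindle, read 40.9, 34.9 and 31.8 FPKM under DMSO and 48.8, 61.5 and 66.5 FPKM under OTX in U937 +FA, a rise without overlap (log2 change 0.70, SE 0.15, adjusted p = 0.00190), and it was not called in the other 3 conditions. DLGAP5, which stabilises microtubules at the kinetochore, read 32, 32.2 and 29 FPKM under DMSO and 44.9, 54 and 56.6 FPKM under OTX in that condition, also without overlap (log2 change 0.72, SE 0.10, adjusted p = 0.000118), and it rose in U937 -FA and IMS-M2 +FA as well (log2 changes 0.74 and 0.44).

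KIF22, a chromosome arm motor, was the kinesin that fell, in IMS-M2 -FA, where it read 62.2, 55.4 and 55.1 FPKM under DMSO and 44.2, 46.4 and 46.9 FPKM under OTX. All 3 OTX libraries were lower (log2 change -0.32, SE 0.09, adjusted p = 0.00699), and the call was lost with the GC trend removed (adjusted p = 0.0533). The other kinesins and spindle proteins that rose in IMS-M2 +FA did so by log2 changes from 0.21 (KIF2C) to 0.84 (KIF20B), and those that rose in U937 -FA by 0.35 (KIF4A) to 1.0 (NUSAP1). KIF14, a motor of the midbody, rose in U937 (0.57 and 0.71) and KIF18A, which trims chromosome movements, in U937 +FA (0.60).

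Cytokinesis genes split into a pair that rose everywhere and a pair that rose in U937 +FA. ANLN, which encodes anillin, the scaffold of the contractile ring, rose by a like amount in every condition. It read 9.23, 8.88 and 8.56 FPKM under DMSO and 15.4, 16.8 and 16.4 FPKM under OTX in IMS-M2 +FA. In IMS-M2 -FA it read 8.67, 9.51 and 9.39 FPKM under DMSO and 13.8, 14.8 and 13.7 FPKM under OTX. In U937 it read 26.1, 27.3 and 25.3 FPKM under DMSO and 43.6, 45.9 and 44 FPKM under OTX with folic acid and 25.3, 26 and 25 FPKM under DMSO and 40.4, 44.2 and 47.1 FPKM under OTX without. Groups never overlapped, and the 4 log2 changes were 0.80, 0.56, 0.74 and 0.76 (adjusted p 5.84e-07, 1.51e-05, 6.83e-06 and 4.79e-06). Its locus includes KIAA0895 in the tables, and whether reads were assigned by strand is not given in the sources used here. ECT2, the exchange factor that starts the furrow, rose by 0.73, 0.46, 0.28 and 0.63 in the same order, with 1 DMSO library above the lowest OTX library in U937 +FA. PRC1, which bundles the central spindle, and RACGAP1, which forms the centralspindlin complex with KIF23, rose in U937 +FA (0.53 and 0.59) and were not called elsewhere. In all, 2, 2, 4 and 2 of the 4 genes rose in the 4 conditions in the order of the heat map, with medians of 0.29, 0.24, 0.56 and 0.41. The shares of all genes that rose were 29.8%, 27.5%, 29.1% and 28.0%.

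Of the 4 genes of chromosome structure 4, 3, 4 and 4 rose in the 4 conditions (medians 0.48, 0.35, 0.51 and 0.56), the exception being TOP2A in IMS-M2 -FA. The shares of all genes that rose were 29.8%, 27.5%, 29.1% and 28.0%. MKI67, which encodes the Ki-67 coat of mitotic chromosomes, read 25.3, 16.9 and 21.7 FPKM under DMSO and 29.4, 27.4 and 33.2 FPKM under OTX in IMS-M2 +FA. In IMS-M2 -FA it read 16.6, 19.4 and 21.2 FPKM under DMSO and 25.8, 28.5 and 27.3 FPKM under OTX. Both pairs of groups were apart (log2 change 0.49, SE 0.13, adjusted p = 0.00589 and log2 change 0.50, SE 0.13, adjusted p = 0.00607), and the second call was lost with the length trend removed (adjusted p = 0.181). U937 +FA gave 27.7, 35 and 35.3 FPKM under DMSO and 51, 46.9 and 49 FPKM under OTX, and U937 -FA gave 26.3, 27.2 and 24.3 FPKM under DMSO and 43.7, 42.6 and 50.6 FPKM under OTX. These were again without overlap (log2 change 0.58, SE 0.10, adjusted p = 0.000602 and log2 change 0.79, SE 0.10, adjusted p = 5.56e-05). TOP2A, the topoisomerase that untangles sister chromatids, read 65.7, 66.3 and 59 FPKM under DMSO and 81.9, 94.9 and 87.7 FPKM under OTX in IMS-M2 +FA (log2 change 0.46, SE 0.10, adjusted p = 0.00117) and 62, 70.9 and 69.6 FPKM under DMSO and 65.5, 80.1 and 65.7 FPKM under OTX in IMS-M2 -FA (log2 change 0.06, SE 0.10, adjusted p = 0.644). The first pair was apart and the second overlapped. In U937 it read 73.8, 81.2 and 70.7 FPKM under DMSO and 90.1, 94 and 86.9 FPKM under OTX with folic acid (log2 change 0.26, SE 0.10, adjusted p = 0.0407) and 58.3, 62.2 and 49.3 FPKM under DMSO and 73.4, 82.7 and 85.4 FPKM under OTX without (log2 change 0.51, SE 0.10, adjusted p = 0.00106). Both were apart, and the call with folic acid was lost without any 1 of DMSO replicates 1 and 3 and the 3 OTX replicates (adjusted p up to 0.133), and with the length trend removed (0.278). NCAPG and NCAPH, subunits of condensin I, rose by log2 changes of 0.26 to 0.69 over the 4 conditions.

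**Figure D2:**
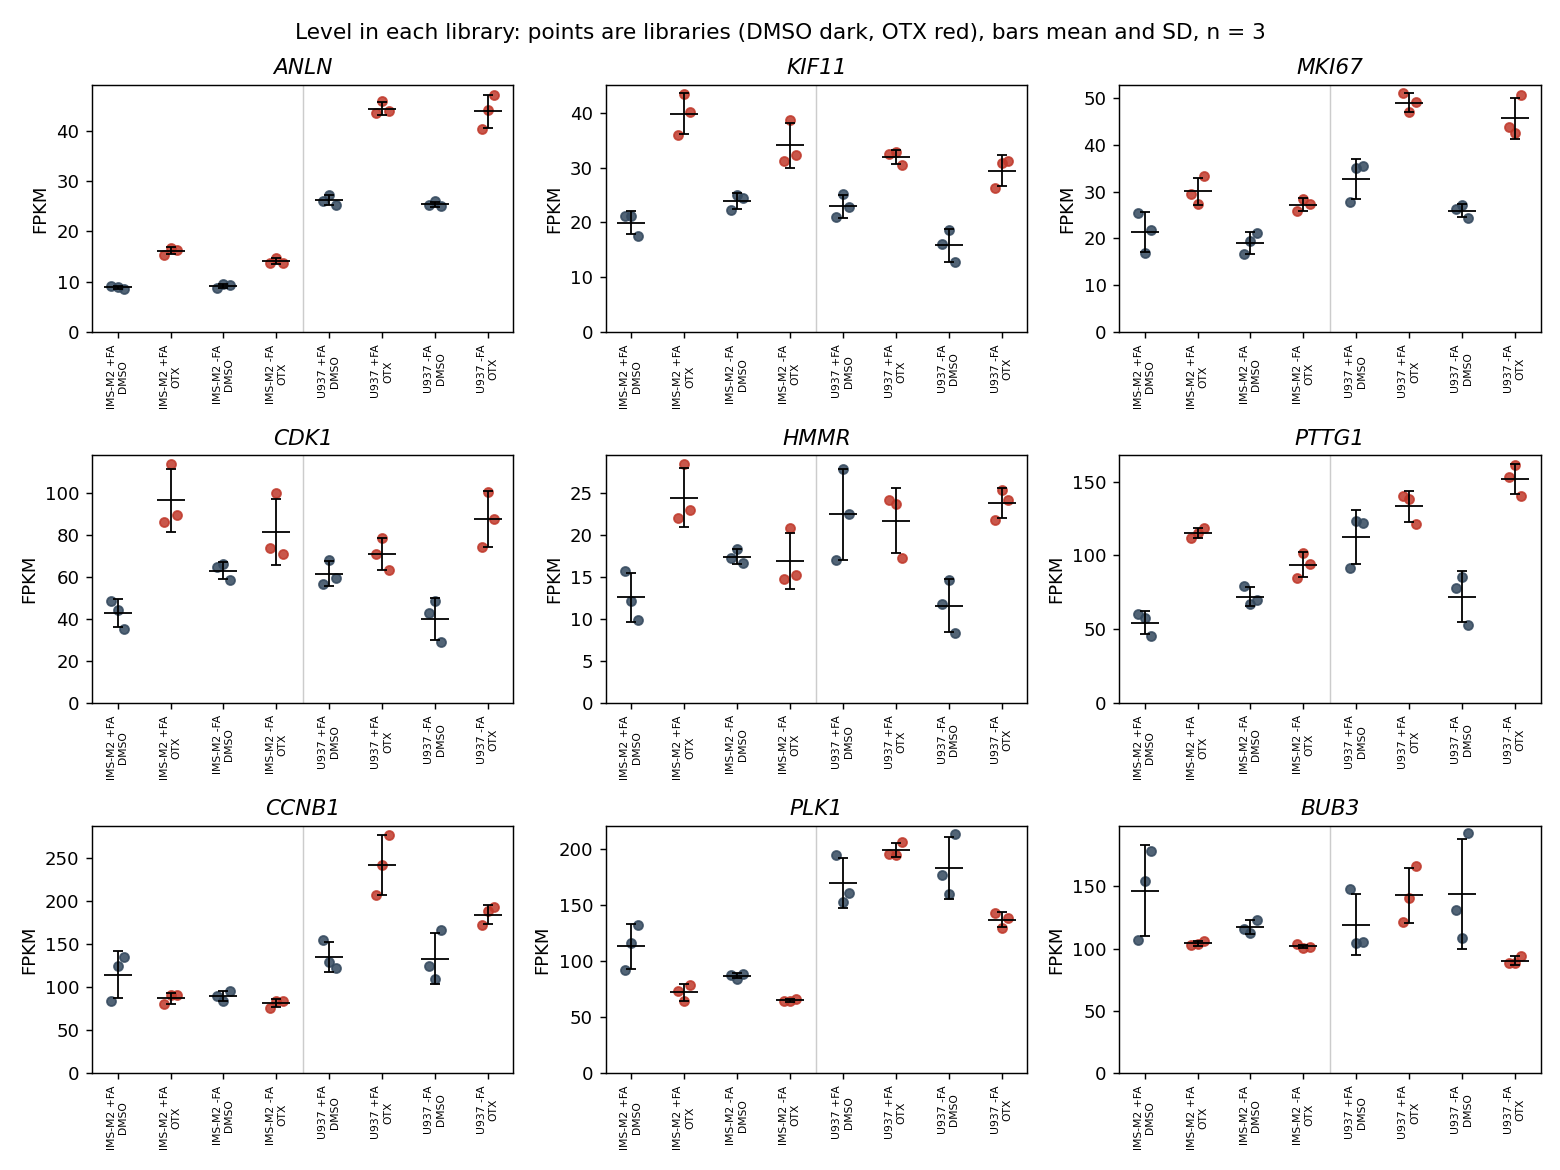
FPKM (y axis, from 0) of 9 genes in each of the 24 libraries, with the 8 groups on the x axis, points for libraries (DMSO dark, OTX red) and black bars for the mean and SD of 3. ANLN, KIF11 and MKI67 are higher under OTX in all 4 pairs of groups, CDK1, HMMR and PTTG1 separate most in IMS-M2 +FA and U937 -FA, and PLK1 and BUB3 are lower under OTX in IMS-M2 and in U937 -FA.

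In the cyclin-CDK engine, CDK1 and cyclin B1 both rose in U937 -FA. In IMS-M2 +FA CDK1 rose and cyclin B1 fell. In U937 +FA cyclin B1 rose and CDK1 was not called. Of its 7 genes, 4 rose and 1 fell in IMS-M2 +FA (median 0.31), 1 rose in IMS-M2 -FA (0.12), and 3 rose in each U937 condition (0.31 and 0.29). Over all genes, in the same order, 29.8%, 27.5%, 29.1% and 28.0% rose and 33.4%, 30.0%, 27.0% and 31.7% fell. CDK1, the kinase that starts mitosis (chr10:62538088-62554610 in hg19), read 48.8, 44.1 and 35.4 FPKM under DMSO and 86.5, 114 and 89.9 FPKM under OTX in IMS-M2 +FA. In U937 -FA it read 42.7, 48.4 and 29 FPKM under DMSO and 74.4, 101 and 87.8 FPKM under OTX. In these 2 conditions it rose by over 1 on the log2 scale, with no overlap (log2 change 1.16, SE 0.15, adjusted p = 2.54e-05 and log2 change 1.13, SE 0.17, adjusted p = 0.000181). In IMS-M2 -FA it read 64.8, 66.1 and 58.4 FPKM under DMSO and 73.8, 100 and 71 FPKM under OTX, and the OTX libraries were above but the change was not called (log2 change 0.35, SE 0.15, adjusted p = 0.0618). It was called there under 5 other settings, among them without IMS-M2 -FA OTX replicate 3 (adjusted p = 0.0415). U937 +FA gave 56.8, 68.4 and 59.5 FPKM under DMSO and 70.8, 78.6 and 63.2 FPKM under OTX, with overlap (log2 change 0.20, SE 0.17, adjusted p = 0.348), and the change was called with the library axis as a covariate (adjusted p = 0.0243).

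CCNB1, which encodes cyclin B1 (chr5:68462836-68474070 in hg19), read 154, 129 and 121 FPKM under DMSO and 207, 241 and 277 FPKM under OTX in U937 +FA and 124, 109 and 165 FPKM under DMSO and 171, 188 and 192 FPKM under OTX in U937 -FA. Each OTX library was above each DMSO library in U937 (log2 change 0.83, SE 0.16, adjusted p = 0.000819 and log2 change 0.49, SE 0.16, adjusted p = 0.0186), and the second call was lost without DMSO columns 0 or 1 or OTX columns 1 or 2 (adjusted p up to 0.0711). In IMS-M2 +FA it read 83.1, 125 and 134 FPKM under DMSO and 79.6, 90.0 and 90.1 FPKM under OTX, with DMSO replicate 1 among the OTX values. It fell there (log2 change -0.37, SE 0.14, adjusted p = 0.0419), a call that was lost without any 1 of DMSO replicates 2 and 3 and the 3 OTX replicates (adjusted p up to 0.176), and under 4 other settings, the highest adjusted p being 0.138 with the library axis as a covariate. IMS-M2 -FA gave 88.9, 83.5 and 95.6 FPKM under DMSO and 75.4, 83.7 and 83.9 FPKM under OTX, with overlap and no call (log2 change -0.14, SE 0.14, adjusted p = 0.429), which became one with the axis as a covariate (0.0147). CCNB2, the second B cyclin, rose in U937 +FA (0.45). CDC25C, a phosphatase that activates CDK1, rose in all but IMS-M2 -FA (0.37, 0.57 and 0.47), and CKS2, a small CDK-binding subunit, rose in IMS-M2 (0.34 and 0.46).

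Among the Aurora, Polo and NEK kinases and their partners, 4 rose and 1 fell in IMS-M2 +FA (median 0.23), 1 fell in IMS-M2 -FA (-0.04), 3 rose in U937 +FA (0.32), and 4 rose and 1 fell in U937 -FA (0.24). Over all genes, in the same order, 29.8%, 27.5%, 29.1% and 28.0% rose and 33.4%, 30.0%, 27.0% and 31.7% fell. The 3 risen in U937 +FA were thus near the background. PLK1, the Polo kinase of mitotic entry and spindle assembly (chr16:23690200-23724821 in hg19), fell in 3 conditions, as SPC24 did. It read 92.2, 116 and 132 FPKM under DMSO and 73, 64.1 and 79.1 FPKM under OTX in IMS-M2 +FA. In IMS-M2 -FA it read 87.3, 84.5 and 88.8 FPKM under DMSO and 64.1, 64.2 and 66.3 FPKM under OTX. All OTX libraries were below all DMSO libraries (log2 change -0.64, SE 0.12, adjusted p = 0.000391 and log2 change -0.42, SE 0.12, adjusted p = 0.00799). U937 -FA gave 177, 160 and 213 FPKM under DMSO and 143, 130 and 139 FPKM under OTX, again with the OTX libraries below (log2 change -0.41, SE 0.12, adjusted p = 0.0103). In U937 +FA it read 195, 153 and 161 FPKM under DMSO and 196, 195 and 206 FPKM under OTX, on the other side of zero and overlapping (log2 change 0.24, SE 0.12, adjusted p = 0.105), and without DMSO replicate 1 this was a call (adjusted p = 0.0272). The tables give PLK1 a locus shared with ERN2. AURKA, the kinase of the spindle poles, read 24.3, 27.7 and 23.2 FPKM under DMSO and 26.5, 29.7 and 29.3 FPKM under OTX in IMS-M2 +FA and 28, 28.4 and 28.2 FPKM under DMSO and 23.9, 26 and 25.2 FPKM under OTX in IMS-M2 -FA. The OTX libraries were mixed with DMSO in the first and below in the second, and neither was called (log2 change 0.18, SE 0.08, adjusted p = 0.0595 and log2 change -0.17, SE 0.08, adjusted p = 0.0848). In U937 it read 66.4, 68.7 and 65.1 FPKM under DMSO and 67.7, 74.9 and 69.2 FPKM under OTX with folic acid (log2 change 0.08, SE 0.08, adjusted p = 0.404) and 57, 56.6 and 49.4 FPKM under DMSO and 61.4, 64.4 and 66.5 FPKM under OTX without (log2 change 0.24, SE 0.08, adjusted p = 0.0219). Only the last of the 4 was called, and that call was lost without DMSO column 2 or OTX columns 1 or 2 (adjusted p up to 0.0769). AURKB, the kinase of the passenger complex, read 79, 64.9 and 77.7 FPKM under DMSO and 77.7, 69.5 and 69.2 FPKM under OTX in U937 -FA, a pair of groups that overlapped (log2 change -0.03, SE 0.12, adjusted p = 0.846), and it rose in U937 +FA (0.49). BIRC5 (survivin) and TACC3, partners of Aurora kinases, rose in IMS-M2 +FA (0.64 and 0.44) and U937 -FA (0.56 and 0.58), and TPX2, which activates AURKA, in the same 2 (0.23 and 0.34).

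The spindle checkpoint genes moved in both directions. In IMS-M2 +FA 3 of 5 rose and 1 fell, in IMS-M2 -FA 1 fell, in U937 +FA 1 rose, and in U937 -FA 2 rose and 1 fell (medians 0.16, 0.10, 0.14 and 0.28). Over all genes, in the same order, 29.8%, 27.5%, 29.1% and 28.0% rose and 33.4%, 30.0%, 27.0% and 31.7% fell. With 5 genes, the counts are too few to compare with these shares. BUB1, a checkpoint kinase at the kinetochore, read 66.5, 62.5 and 61.5 FPKM under DMSO and 86.1, 94.5 and 96.1 FPKM under OTX in U937 +FA and 56.4, 56.9 and 60.6 FPKM under DMSO and 68.3, 72.1 and 78.7 FPKM under OTX in U937 -FA. It rose in both without overlap (log2 change 0.53, SE 0.08, adjusted p = 0.000158 and log2 change 0.33, SE 0.08, adjusted p = 0.00387). In IMS-M2 it read 56.2, 56.7 and 57.5 FPKM under DMSO and 63.1, 64.8 and 63.6 FPKM under OTX with folic acid (log2 change 0.16, SE 0.06, adjusted p = 0.0299) and 52.7, 53.2 and 55.1 FPKM under DMSO and 56.8, 59.2 and 56.4 FPKM under OTX without (log2 change 0.10, SE 0.06, adjusted p = 0.185). The OTX libraries were above in both, by a small margin, and the call with folic acid was lost without DMSO replicate 2 or any 1 OTX replicate (adjusted p up to 0.0728) and with the GC trend removed (0.431). BUB3, which carries BUB1 to the kinetochore, fell in IMS-M2 +FA, where it read 107, 155 and 178 FPKM under DMSO and 103, 104 and 106 FPKM under OTX, and in U937 -FA, where it read 131, 108 and 193 FPKM under DMSO and 88, 88.1 and 94.3 FPKM under OTX. The OTX libraries were the lower in both (log2 change -0.46, SE 0.14, adjusted p = 0.0120 and log2 change -0.63, SE 0.20, adjusted p = 0.0180), and the DMSO libraries spread widely, from 107 to 178 FPKM and from 108 to 193 FPKM. The calls were lost without IMS-M2 +FA DMSO replicate 3 (log2 change -0.30, adjusted p = 0.0522), U937 -FA DMSO column 2 (-0.40, 0.0576) or U937 -FA OTX column 1 (0.0510). BUB1B, the kinase-like inhibitor of the APC/C, read 43.6, 46.8 and 44.3 FPKM under DMSO and 39.5, 41.2 and 36.1 FPKM under OTX in U937 +FA, below in every library but not called (log2 change -0.20, SE 0.11, adjusted p = 0.139), and it fell in IMS-M2 -FA (-0.27). MAD2L1 and TTK, a checkpoint effector and its kinase, rose in IMS-M2 +FA (0.62 and 0.53), and TTK in U937 -FA (0.42).

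In the APC/C group, CDC20 and UBE2C, which drive the same enzyme, gave different responses. CDC20, the activator that the checkpoint holds back, read 252, 206 and 227 FPKM under DMSO and 379, 317 and 363 FPKM under OTX in U937 +FA and rose (log2 change 0.63, SE 0.10, adjusted p = 0.000198). In U937 -FA it read 207, 191 and 191 FPKM under DMSO and 228, 215 and 212 FPKM under OTX, above in every library but not called (log2 change 0.15, SE 0.10, adjusted p = 0.188), and it was called with the length or GC trend removed (adjusted p = 0.0308 and 0.00353). In IMS-M2 it read 127, 128 and 142 FPKM under DMSO and 134, 115 and 140 FPKM under OTX with folic acid and 110, 94.2 and 106 FPKM under DMSO and 110, 105 and 118 FPKM under OTX without. Those groups overlapped (log2 change -0.03, SE 0.10, adjusted p = 0.789 and log2 change 0.10, SE 0.10, adjusted p = 0.390). UBE2C, the ubiquitin-conjugating enzyme of the APC/C (chr20:44441254-44445596 in hg19), had the lowest log2 change of any member in any condition. It read 63, 60.7 and 57.4 FPKM under DMSO and 22.2, 28.3 and 29.2 FPKM under OTX in IMS-M2 -FA, far apart in all libraries (log2 change -1.16, SE 0.13, adjusted p = 9.28e-06). In IMS-M2 +FA it read 51.1, 38.6 and 38.3 FPKM under DMSO and 27.8, 32.9 and 35.2 FPKM under OTX and fell (log2 change -0.40, SE 0.13, adjusted p = 0.0180), a call lost without DMSO replicate 1 or OTX replicate 1 (adjusted p up to 0.0834) and with the length or GC trend removed (0.0595 and 0.0842). U937 +FA gave 33.1, 44.9 and 48.4 FPKM under DMSO and 35.4, 31.4 and 24.5 FPKM under OTX, with overlap (log2 change -0.45, SE 0.20, adjusted p = 0.0743), and the change was called without DMSO replicate 1 (0.0277) and with the library axis as a covariate (0.0131). In U937 -FA the mean of UBE2C was higher under OTX. It read 29.5, 33.7 and 20.1 FPKM under DMSO and 35.8, 41.7 and 32.4 FPKM under OTX, with overlap and no call. PTTG1 (securin), the inhibitor of separase, read 60.0, 57.5 and 45.3 FPKM under DMSO and 112, 115 and 118 FPKM under OTX in IMS-M2 +FA and 77.9, 85.6 and 52.7 FPKM under DMSO and 153, 161 and 141 FPKM under OTX in U937 -FA. It rose in both, with no overlap (log2 change 1.08, SE 0.11, adjusted p = 3.09e-06 and log2 change 1.09, SE 0.17, adjusted p = 0.000202), and it also rose in IMS-M2 -FA (0.37). ESPL1 (separase) rose in U937 +FA (0.48).

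At the centromere and kinetochore, 5 of 7 genes rose and 1 fell in IMS-M2 +FA (median 0.51), 1 rose and 1 fell in IMS-M2 -FA (-0.13), 2 rose in U937 +FA (0.25), and 4 rose and 1 fell in U937 -FA (0.64). Over all genes, in the same order, 29.8%, 27.5%, 29.1% and 28.0% rose and 33.4%, 30.0%, 27.0% and 31.7% fell. CENPE, the kinetochore motor that brings chromosomes to the spindle equator, read 4.31, 3.68 and 3.45 FPKM under DMSO and 7.21, 9.48 and 8.41 FPKM under OTX in IMS-M2 +FA. IMS-M2 -FA gave 4.38, 5.13 and 4.17 FPKM under DMSO and 5.86, 8.19 and 6.0 FPKM under OTX. In U937 it read 4.72, 6.46 and 5.45 FPKM under DMSO and 7.31, 7.14 and 6.64 FPKM under OTX with folic acid and 3.39, 3.97 and 2.71 FPKM under DMSO and 6.94, 7.88 and 8.17 FPKM under OTX without. The OTX libraries were above in all 4 (log2 change 0.96, SE 0.13, adjusted p = 3.07e-05, log2 change 0.46, SE 0.13, adjusted p = 0.00785, log2 change 0.30, SE 0.12, adjusted p = 0.0483 and log2 change 1.0, SE 0.12, adjusted p = 2.85e-05). The IMS-M2 -FA call was lost with the length trend removed (adjusted p = 0.132). The U937 +FA call was lost without any 1 of 5 of its 6 libraries, all but DMSO replicate 2 (up to 0.174), and under 6 other settings, the highest being 0.504 with the length trend removed.

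CENPA, the histone that marks centromeres, read 21.3, 19.7 and 16.3 FPKM under DMSO and 25, 30.7 and 28.6 FPKM under OTX in IMS-M2 +FA and rose (log2 change 0.54, SE 0.13, adjusted p = 0.00253). In IMS-M2 -FA it read 26.8, 22 and 23.8 FPKM under DMSO and 18.8, 25.3 and 22.3 FPKM under OTX, with overlap (log2 change -0.13, SE 0.13, adjusted p = 0.393). U937 gave 30.4, 42.3 and 46.6 FPKM under DMSO and 40.2, 37 and 26.3 FPKM under OTX with folic acid (log2 change -0.20, SE 0.21, adjusted p = 0.433) and 30.0, 39.4 and 23.7 FPKM under DMSO and 38.2, 43.2 and 36.8 FPKM under OTX without (log2 change 0.36, SE 0.21, adjusted p = 0.153), both overlapping, and the latter was called without DMSO column 1 (0.0389). NUF2, a microtubule-binding subunit of the NDC80 complex, read 10.5, 9.48 and 6.03 FPKM under DMSO and 16.8, 22.3 and 17.1 FPKM under OTX in IMS-M2 +FA, a rise without overlap (log2 change 1.05, SE 0.18, adjusted p = 0.000284). U937 +FA gave 15.9, 25.9 and 20.6 FPKM under DMSO and 20.6, 20.2 and 15 FPKM under OTX, mixed and on the other side of zero (log2 change -0.14, SE 0.24, adjusted p = 0.640). NUF2 also rose in U937 -FA (0.97), as did NDC80 (0.64). SPC24, another subunit of the same 4-protein complex (chr19:11257830-11266484 in hg19), went the other way. It read 26.1, 24.9 and 25.8 FPKM under DMSO and 18.9, 16.1 and 18 FPKM under OTX in IMS-M2 +FA. IMS-M2 -FA gave 21.6, 19.4 and 21.7 FPKM under DMSO and 15.6, 15 and 18.7 FPKM under OTX. In U937 -FA it read 26.6, 24.1 and 26.8 FPKM under DMSO and 20.1, 17.1 and 18.2 FPKM under OTX. The OTX libraries were below in all 3 conditions (log2 change -0.51, SE 0.09, adjusted p = 0.000315, log2 change -0.34, SE 0.09, adjusted p = 0.00678 and log2 change -0.46, SE 0.08, adjusted p = 0.000384), and above but not called in U937 +FA (log2 change 0.11, SE 0.08, adjusted p = 0.256). SPC25, its direct partner, rose in U937 +FA (0.59) and was not called elsewhere.

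Other genes of mitosis, a list of 98, was tested in the same fits. In IMS-M2 +FA 56 of the 96 tested rose and 7 fell (median log2 change 0.32), beside 29.8% and 33.4% of all genes. In IMS-M2 -FA 23 rose and 15 fell (0.09), beside 27.5% and 30.0%, so that the risen were near the background. In U937 +FA 42 of 98 rose against 8 that fell (0.23), beside 29.1% and 27.0%, and in U937 -FA 44 against 15 (0.22), beside 28.0% and 31.7%. SKA1, a kinetochore-spindle linker, had log2 changes of 1.22 and 0.72 in IMS-M2. UBE2S, the chain-extending partner of UBE2C at the APC/C, had 1.2 and 0.63 there, and in that line UBE2C fell. The response of UBE2S without folic acid was not called as different in U937 (log2 difference 0.15, SE 0.19, adjusted p = 0.547 in limma). CENPK, a centromere subunit, was also among the 3 risen genes of smallest p in IMS-M2 +FA (1.11), and CIT (citron kinase, of the midbody) in IMS-M2 -FA and both U937 conditions (0.44, 0.90 and 0.63). In U937 the others were CASC5 and CENPI, of the kinetochore and centromere, with folic acid (0.92 and 0.66), and CDCA2 and CEP55, of chromatin and abscission, without (0.94 and 1.17). Among fallen genes, ANAPC1, the largest subunit of the APC/C, fell in IMS-M2 +FA, U937 +FA and U937 -FA (-0.39, -0.70 and -1.01). TRIP13, which takes checkpoint complexes apart, and CDC25A, a phosphatase of earlier cycle steps, fell in U937 +FA (-0.61 and -0.63) and U937 -FA (-0.91 and -0.68).

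Of 10 transcription factors of G2 and M, 2 rose and 2 fell in IMS-M2 +FA, 1 and 4 in IMS-M2 -FA, 1 and 3 in U937 +FA, and 1 and 4 in U937 -FA. Over all genes, in the same order, 29.8%, 27.5%, 29.1% and 28.0% rose and 33.4%, 30.0%, 27.0% and 31.7% fell. FOXM1 fell in IMS-M2 +FA (log2 change -0.30, SE 0.07, adjusted p = 0.00164), IMS-M2 -FA (log2 change -0.49, SE 0.07, adjusted p = 4.67e-05) and U937 -FA (log2 change -0.23, SE 0.08, adjusted p = 0.0196), and was not called in U937 +FA (log2 change -0.00, SE 0.08, adjusted p = 0.970). The U937 -FA call was lost without DMSO columns 0 or 1 or OTX columns 1 or 2 (adjusted p up to 0.0745) and with the GC trend removed (0.302). MYBL2 was called in no condition (log2 changes 0.17, -0.03, 0.07 and -0.13), although it was called as risen in IMS-M2 +FA with the GC trend removed (2.26e-05). E2F4 and TFDP1, the E2F subunits of DREAM, were 2 of the 3 fallen genes of smallest p in IMS-M2 -FA (-0.38 and -0.33), with CENPT, a centromere gene, in IMS-M2 +FA (-0.39). A list of 35 DNA replication genes, from the phase before G2, gave 8 risen and 13 fallen in IMS-M2 +FA (median -0.02), 2 and 14 in IMS-M2 -FA (-0.17), 5 and 7 in U937 +FA (0.01), and 1 and 22 in U937 -FA (-0.44). The same shares of all genes stand beside these counts, and those of IMS-M2 +FA were near them.

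Without folic acid, the response of IMS-M2 to OTX was smaller or more negative for 10 genes. The test of the difference between the -FA and the +FA change called 10 of 54 lower, where 3.61% of all genes were, and none higher (3.33% of all genes), with none of the 54 below the unadjusted threshold in that direction. The median log2 difference was -0.25, against 0.03 over all genes. The 10 were NUF2 (log2 difference -1.12, SE 0.26, adjusted p = 0.0324), HMMR (log2 difference -0.98, SE 0.22, adjusted p = 0.0314), CDK1 (log2 difference -0.81, SE 0.21, adjusted p = 0.0419), UBE2C, PTTG1, BIRC5, NDC80, CENPA, NUSAP1 and KIF22, the last 7 between -0.76 and -0.48. For 9 of them the change with folic acid was positive, and UBE2C fell further. Over all genes called in this comparison 48% were higher, and 58.3% after rescaling libraries to an equal median. The count of 10 turns on single libraries and settings: it was 18, with 7 genes higher, without IMS-M2 +FA DMSO replicate 1, 15 without IMS-M2 -FA OTX replicate 2, 0 to 2 without any 1 of the other 10 libraries, and 0 (with 26 below the unadjusted threshold) with the library axis as a covariate. The share of all genes called under these settings is not given here, so the changed counts have no background. The highest differences were BUB3, KIF18A and CCNB1 (0.26, 0.23 and 0.23), and none of those was called.

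In U937, 1 gene was called lower, SPC24 (log2 difference -0.57, SE 0.11, adjusted p = 0.0454), where 1.27% of all genes were. None was called higher (0.741% of all genes). Below the unadjusted threshold were 14 of the 54 in the higher direction and 12 in the lower. The share of all genes below that threshold is not given here. SPC24 lost its call without 9 of the 12 libraries (adjusted p up to 0.146) and with a pseudocount of 0.1 FPKM. The median difference was 0.08, against -0.05 over all genes. The highest log2 differences were NUF2 1.11, HMMR 1.05 and CDK1 0.93, and the lowest were BUB3 -0.89, PLK1 -0.64 and SPC24. NUF2, HMMR and CDK1 therefore had the highest values in U937 and the lowest in IMS-M2. Those in U937 lay just past the threshold and were not called (limma adjusted p 0.0687, 0.0584 and 0.0540). Those in IMS-M2 lay just within it (0.0324, 0.0314 and 0.0419), and each lost its call without any 1 of 10 of the 12 libraries. Leaving out U937 -FA DMSO column 1 gave 11 higher and 7 lower, and leaving out U937 +FA DMSO replicate 1 gave 8 and 8. The share of all genes called with those libraries left out is not given here, so these counts have no background. Among all genes called here 36.9% were higher, and 50.4% after rescaling.

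**Figure D3:**
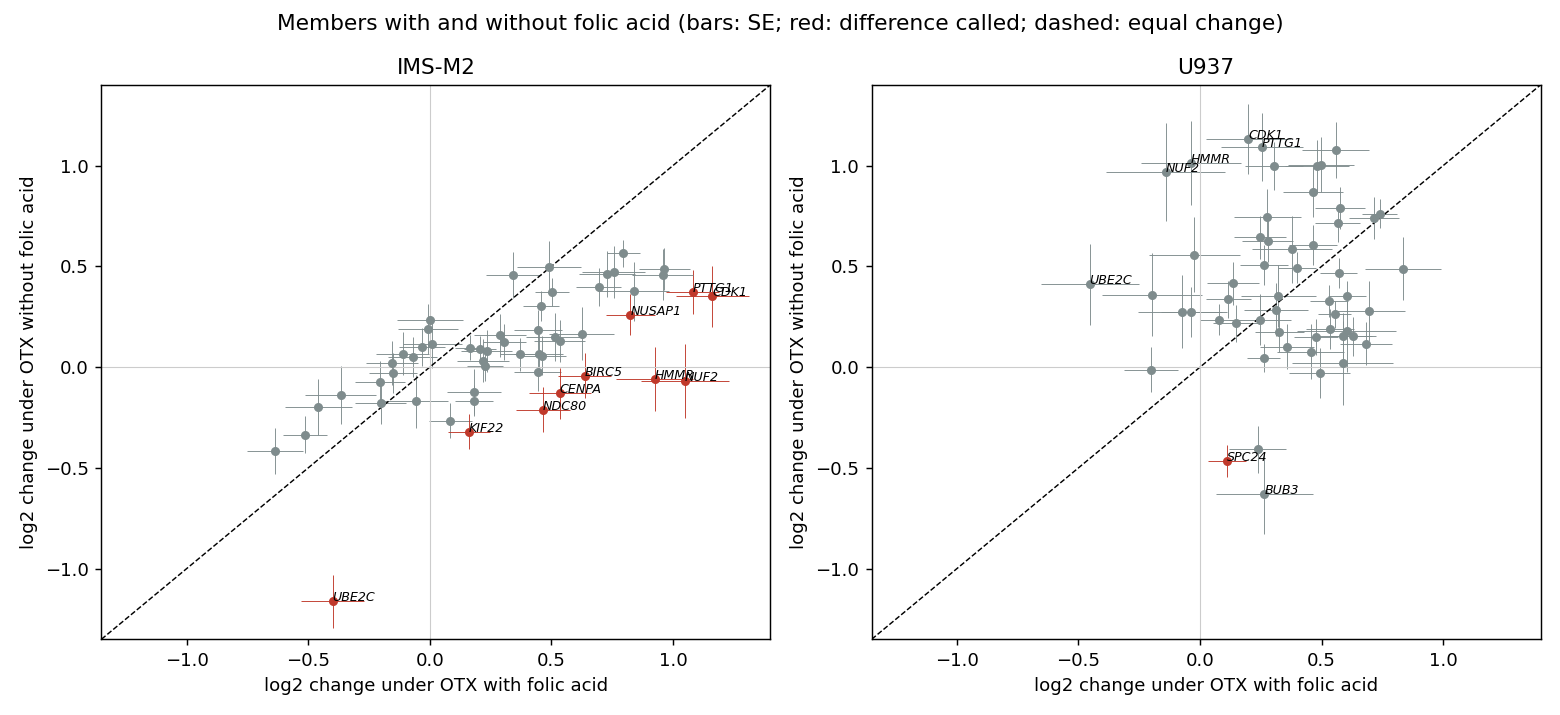
Log2 change under OTX with folic acid (x axis) against that without it (y axis) for the 54 genes in IMS-M2 (left) and U937 (right), with bars for the SE, the dashed line for equal changes, and red for genes whose difference was called. The 10 red genes of IMS-M2 lie below the line, and in U937 SPC24 is the red one, with NUF2, HMMR and CDK1 farthest above the line.

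Between the lines, the counts of mitosis genes with a different response were near the background with folic acid. There the change under OTX was higher in U937 for 15 genes (27.7% of all 12197 genes tested) and lower for 11 (22.9%), with a median log2 difference of -0.04. CCNB1 (log2 difference 1.2, SE 0.22, adjusted p = 0.000200), PLK1 (log2 difference 0.87, SE 0.17, adjusted p = 0.000251), KIF20A (log2 difference 0.79, SE 0.15, adjusted p = 0.000288) and CDC20 (log2 difference 0.66, SE 0.13, adjusted p = 0.000392) were among the higher. NUF2 (log2 difference -1.19, SE 0.33, adjusted p = 0.00527), HMMR (log2 difference -0.96, SE 0.28, adjusted p = 0.00748) and CDK1 (log2 difference -0.96, SE 0.24, adjusted p = 0.00289) were the 3 lowest, and CENPA, CENPE and KIF11 were also lower (-0.73, -0.65 and -0.50). BUB1 was higher by 0.37. AURKA, ANLN, MKI67 and TOP2A were not called (-0.10, -0.06, 0.09 and -0.20). The count of 11 was 5 without IMS-M2 +FA DMSO replicate 3, 6 without IMS-M2 +FA OTX replicate 2 or U937 +FA DMSO replicate 2, 7 without U937 +FA OTX replicate 3, and 6 with the library axis as a covariate. CENPA lost its call without 5 of the 12 libraries (adjusted p up to 0.0780) and KIF11 without 3 (0.0583), and both with that covariate (log2 differences -0.25 and -0.27).

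Without folic acid, the difference between lines was 1-sided. In U937 the change was higher for 23 genes (21.5% of all genes) and lower for none (21.5%), with none of the 54 below the unadjusted threshold in that direction in limma, and the median log2 difference was 0.28. UBE2C (log2 difference 1.57, SE 0.25, adjusted p = 5.15e-05), HMMR (log2 difference 1.07, SE 0.28, adjusted p = 0.00431) and NUF2 (log2 difference 1.03, SE 0.33, adjusted p = 0.0154) were the 3 highest. CDK1 (0.78), CCNB1 (0.63), CENPE (0.54), TOP2A (0.45), AURKA (0.40) and BUB1 (0.23) were higher as well. PLK1, CDC20, CENPA, KIF11, KIF20A, ANLN and MKI67 were not called (log2 differences of 0.01 to 0.49), nor were BUB3, CKS2 and SPC24, the 3 lowest (-0.43, -0.22 and -0.13). The count of 23 was 15 without U937 -FA DMSO column 2. CCNB1 lost its call without 7 of 12 libraries (adjusted p up to 0.0787), BUB1 without 8 (0.109), CENPE without 4 (0.0662) and NUF2 without 1 (0.0509). CDK1, HMMR and NUF2 thus lay below IMS-M2 with folic acid and above it without, each past the threshold.

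Levels with and without folic acid come from separate tables that may have been normalised apart, so they are described and not tested. In U937 under DMSO, the 3 -FA libraries were all below the 3 +FA libraries for 29 of the 54 genes (10.9% of all genes) and all above for none (19.4%), with a median log2 difference in level of -0.33. The summed myeloid markers were higher in those -FA libraries (1788 to 2176 FPKM, against 871 to 1048). Their part was not tested. Under OTX the counts in U937 were 27 below (21.0%) and 2 above (19.7%), with a median of -0.18. In IMS-M2 under DMSO 17 were above (18.0%) and 7 below (16.4%), with a median of 0.08. Under OTX none was above (13.8%) and 18 were below (11.0%), with a median of -0.18. These levels come from the same libraries as the responses to OTX. Across the 8 groups the median member level ran from 24.3 FPKM in IMS-M2 -FA DMSO to 46.7 FPKM in U937 +FA OTX, the group with the highest mean for 32 genes. U937 -FA DMSO had the lowest mean for 15 genes and IMS-M2 +FA DMSO for 14.

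The members differed between libraries of 1 group in 2 blocks. Over the 24 libraries, 15 members followed the leading axis with r above 0.5, led by BUB3 (0.98), CCNB1 (0.91) and KIF23 (0.90), with PLK1 at 0.83. Another 19 ran against it with r below -0.5, led by BIRC5 (-0.97), TACC3 (-0.91) and KIF22 (-0.90), with PTTG1 at -0.89, UBE2C at -0.88, HMMR at -0.84, NUF2 at -0.83 and CDK1 at -0.68. All 10 genes called lower in the folic acid difference of IMS-M2 were among these 19, with r from -0.63 (NDC80) to -0.97 (BIRC5). The part of the axis in those calls was not tested beyond its use as a covariate. ANLN had an r of -0.14 and CDC20 of 0.20. Across the 54 genes, which share these libraries, the slope on the axis and the log2 change under OTX had a Spearman rho of -0.66 in IMS-M2 +FA, -0.07 in IMS-M2 -FA, 0.58 in U937 +FA and -0.64 in U937 -FA, given as a description. The full axis score of each library was also used as a covariate, a setting added after the data were seen. It was recomputed in each fit and includes differences between groups, so it can take up part of the response to OTX. With it, 34 genes rose and 4 fell in IMS-M2 +FA, where 31.5% and 32.3% of all genes did. The counts were 14 and 9 in IMS-M2 -FA (28.6% and 32.9% of all genes), 39 and 1 in U937 +FA (34.8% and 32.4%), and 38 and 3 in U937 -FA (32.0% and 35.6%). The share of all genes called as risen was thus also larger than without the covariate in each condition.

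**Figure D4:**
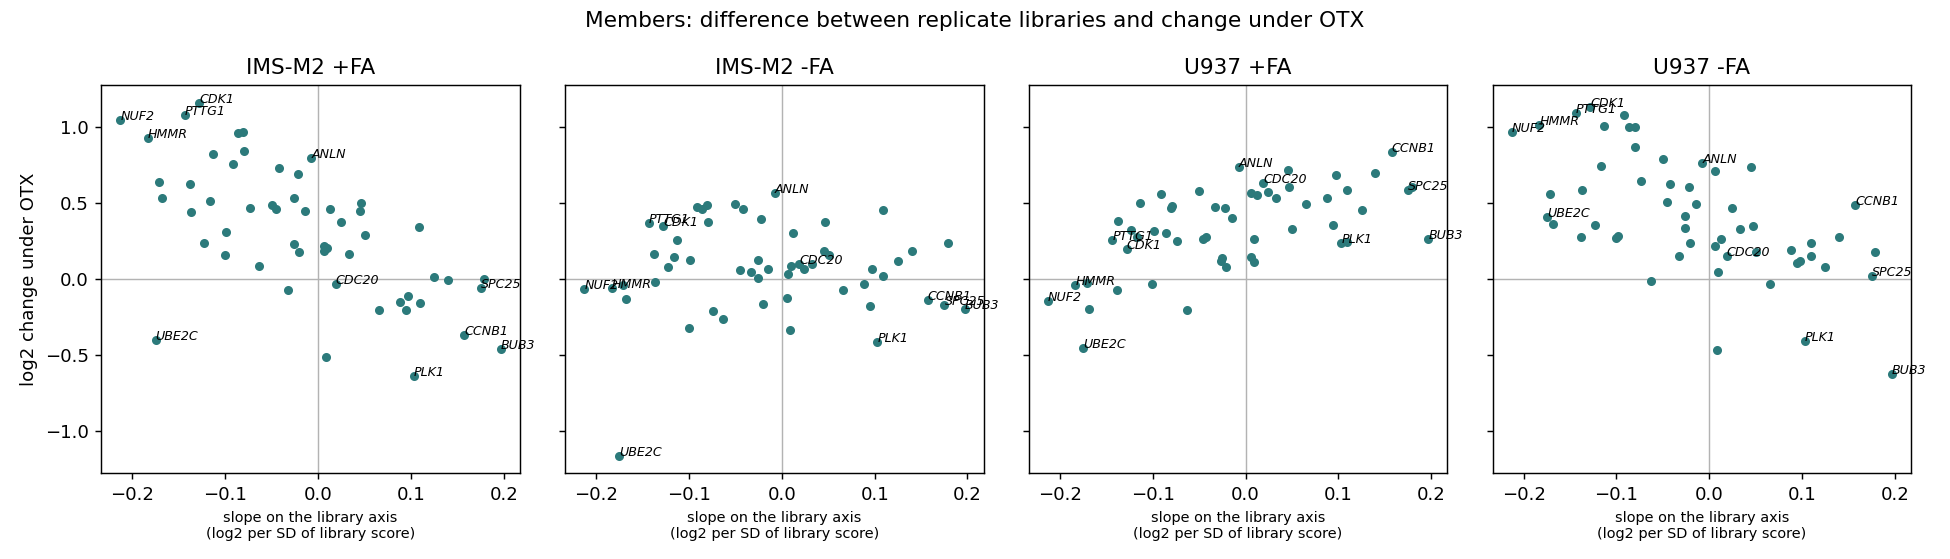
Slope of each of the 54 genes on the library axis (x axis, log2 per SD of library score, from deviations within groups) against its log2 change under OTX (y axis) in the 4 conditions. Points run downward in IMS-M2 +FA and U937 -FA (rho -0.66 and -0.64) and upward in U937 +FA (0.58), with NUF2 and HMMR at the left end and CCNB1 and BUB3 at the right.

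Gene properties moved with the response too, as descriptions over the 54 genes. Spearman's rho between transcript length and log2 change was 0.33, 0.50, 0.23 and 0.32 in the order of the heat map, against 0.10, 0.21, 0.18 and 0.11 over all genes with a length. For GC content it was -0.57, -0.47, -0.07 and -0.53, against -0.25, -0.23, -0.06 and -0.16, and the part of these properties in the result was not tested beyond the settings with each trend removed. The 33 genes with TTTGAA in the promoter had median log2 changes of 0.46, 0.15, 0.46 and 0.49, and the 14 without it 0.17, 0.02, 0.34 and 0.27. The 38 genes with CCAAT had medians of 0.30, 0.11, 0.47 and 0.31, and the 9 without it 0.46, 0.06, 0.30 and 0.61. PLK1, which fell in 3 conditions, has TTTGAA and CCAAT in the sequence printed above, as CDK1 and KIF11 do.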

How the data were processed

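The deposited tables, 1 for each line and folic acid condition, give FPKM per gene and library, which the authors made from reads on hg19. TopHat2 2.1.1, Cuffdiff 2.2.1 and bcl2fastq 2.17.1.14 are listed, without roles, in the submitters' processing notes. Whether the 4 tables share a normalisation, and the depth, are not given in the sources used here. From the deposited FPKM, log2(FPKM + 1) was computed, genes whose mean reached 1 FPKM in some group were kept, and limma 3.58.1 in R 4.3.3 was fitted, with Benjamini-Hochberg adjustment over all genes and a threshold of 0.05. Responses were fitted over the 12 libraries of a line, and differences between lines over all 24. The fit was tested on simulated data.

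Named genes are 13 core members in each comparison, the 4 highest and 4 lowest changes per OTX comparison (3 and 3 for differences), FOXM1, MYBL2 and, of other mitosis genes, the 3 of smallest p called in each direction. Others were named after their values were seen. Members and lists were chosen with earlier results of these data known. Alternatives were another pseudocount, filters, equal medians, single tables, the replicate block and each library left out. Removing length or GC trends and the axis covariate were added after seeing the data. FPKM are relative to the library's total. CCNA2, CKS2, PLK1, BUB1B, KIF18A, KIF20A, ANLN, PRC1 and NCAPG share a locus with another gene in the tables. For CKS2 and KIF18A that gene is a microRNA. Their values may therefore be uncertain, which was not tested.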

Additional observations from a re-analysis of the deposited data

Results flagged for a closer look

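These results are listed because a limma test of the difference between 2 responses to OTX passed the threshold. In IMS-M2, the response without folic acid minus that with it was -0.81 for CDK1, -0.67 for CENPA, -1.12 for NUF2 and -0.98 for HMMR on the log2 scale, and each lost its call without any 1 of 10 of the 12 libraries. In U937 the same difference was -0.57 for SPC24.

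With folic acid, the response in U937 minus that in IMS-M2 was 1.2 for CCNB1, 0.87 for PLK1, 0.79 for KIF20A, 0.66 for CDC20, 0.37 for BUB1 and 0.30 for FOXM1. It was -1.19 for NUF2, -0.96 for HMMR, -0.96 for CDK1, -0.73 for CENPA, -0.65 for CENPE and -0.50 for KIF11. Without folic acid it was 1.57 for UBE2C, 1.07 for HMMR, 1.03 for NUF2, 0.78 for CDK1, 0.63 for CCNB1, 0.54 for CENPE, 0.45 for TOP2A, 0.40 for AURKA, 0.26 for FOXM1 and 0.23 for BUB1. With the library axis as a covariate, CDK1 lost the last of these calls (adjusted p = 0.0525).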

How the results depend on the processing

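Of 3144 values of single genes under other settings, 2904 kept their side of the threshold (55 of them, called neither way, changed sign), 156 lost a call and 82 gained one. Another 2, uncalled in the fit used above, gained a call with the sign changed, both with the GC trend removed. They were CDC20 in IMS-M2 +FA (-0.03, then 0.15) and MYBL2 in IMS-M2 -FA (-0.03, then 0.13). The cause was not tested for any change given here. The 10 genes lower in the folic acid difference of IMS-M2 became 1 with no filter on low values (23 below the unadjusted threshold), 18 with the GC trend removed and 0 with the axis covariate. With the length trend removed, 3 in place of 5 fell in IMS-M2 +FA, 1 in place of 0 fell in U937 +FA, and 1 in place of 0 was higher in the folic acid difference of U937, as with equal medians (1). The 1 gene lower there became 0 with a pseudocount of 0.1 FPKM (11 below the unadjusted threshold). In IMS-M2 -FA, 9 in place of 5 fell with the GC trend removed and 9 with the axis covariate, with which 1 fell in U937 +FA and 6 in place of 11 were lower in U937 than in IMS-M2 with folic acid.

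Leaving out 1 library at a time gave 27 to 32 risen and 3 to 10 fallen genes in IMS-M2 +FA, 10 to 13 and 4 to 6 in IMS-M2 -FA, 23 to 30 and 0 to 1 in U937 +FA, and 26 to 34 and 2 to 3 in U937 -FA. It gave 0 to 7 higher and 0 to 18 lower in the folic acid difference of IMS-M2, and 0 to 11 and 0 to 8 in that of U937. Between the lines it gave 12 to 18 higher and 5 to 11 lower with folic acid, and 15 to 26 higher and 0 lower without. For counts under other settings, shares of all genes are given only for the axis covariate in the comparisons of OTX with DMSO. The other counts have no background beside them.

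Equal replicate numbers do not pair the libraries by the labels: correlations of same-numbered libraries were 0.0534, 0.2763 and 0.0743 in IMS-M2 +FA, 0.0743, 0.213 and 0.1892 in IMS-M2 -FA, and -0.3346, 0.1278 and -0.2374 in U937 +FA. Each DMSO library of IMS-M2 correlated best with the OTX library of its own number, and no DMSO library of U937 +FA did. The best match of each OTX library was not checked. With the replicate block, 36 rose and 6 fell in IMS-M2 +FA, 15 and 5 in IMS-M2 -FA, and 28 and 0 in U937 +FA, and 16 were lower in the folic acid difference of IMS-M2. No block could be fitted in U937 -FA, whose columns carry other numbers. Depth is unknown, so its limit on low values cannot be given.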
